A study of Mus musculus with 24 samples.

Results

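Foxp3, the transcription factor that defines regulatory T cells, and 8 genes known for high levels in those cells were followed in mouse CD4 T cells that lack TRIM28 and in their wild-type counterparts. The 9 genes are Foxp3, Ikzf2, Ikzf4, Nrp1, Lrrc32, Izumo1r, Gpr83, Nt5e and Tnfrsf18. They were taken by symbol from 22180 genes measured on the arrays, and all 9 were found, each on 1 probe set that names no other gene. Foxp3 and Tnfrsf18 also lie on probe sets listed with several genes, which were not used. Values are log2 intensities, so a difference of 1 is a doubling of the signal. Probe sets differ in their response, so levels are compared between groups for one gene and not between genes.

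The study has 8 groups of 3 arrays. TRIM28 knockout cells (KO) at 0, 4, 24 and 72 h of stimulation were set against cells of wild-type littermates (WT) at the same times. All were naive CD4 T cells, enriched on magnetic beads and then sorted by flow cytometry. Stimulation was with anti-CD3 bound to the plate and anti-CD28 in solution, and the 0 h cells were not stimulated. The sources used here give no age, strain or sort gate, and no promoter or Cre for the removal of TRIM28. Nothing in the labels ties an array to an animal of its own, so p-values reflect only how these arrays varied, which may be partly technical.

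The arrays of a group correlated with each other at 0.981 to 0.992 over all genes, and array medians lay between 3.59 and 3.76. Trim28 averaged 5.16 ± 0.26 in KO cells and 7.78 ± 0.07 in WT cells at 0 h (SD, n = 3 each), and its level was lower on every KO array than on every WT array at all 4 times. Whether its probe set reads the deleted exons is not stated in the labels. Of 10 CD4 T cell markers 7 were measured, none of them below the median of the table, and their summed level was 13.5 to 13.54 in KO cells and 13.59 to 13.68 in WT cells at 0 h. The array numbered 3 of every group had high Y-linked transcripts and low Xist, and the arrays numbered 1 and 2 the reverse, so the 3 arrays of a group did not all come from 1 animal. B cell markers differed among arrays and between genotypes, and their values stand beside the results they move with.

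Regulatory T cells are CD4 T cells that restrain other lymphocytes. Foxp3 sustains their program together with partner factors such as Helios (Ikzf2) and Eos (Ikzf4). Surface proteins of these cells include the semaphorin receptor neuropilin-1 (Nrp1), GARP (Lrrc32), which presents latent TGF-beta, the folate receptor family member Juno (Izumo1r), the ecto-enzyme CD73 (Nt5e), the receptor GITR (Tnfrsf18) and the G protein-coupled receptor Gpr83. Some of them, among them GITR and CD73, are also found on conventional CD4 T cells. The arrays measured bulk RNA, in which more cells of a type and more RNA per cell cannot be told apart.

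Sequences upstream of 6 of the 9 genes were available from RefSeq, as 7 windows of 300 bases from 250 before to 50 after a transcript start (build GRCm38.p6). Foxp3 has 2 such windows. Both are shown here because its level differed between the genotypes. The Izumo1r window is shown because the levels of Izumo1r were among those most like Foxp3, and the Tnfrsf18 window because it holds the same pair of motifs as the second Foxp3 window.
Foxp3, first start, chrX:7579426-7579725, plus strand: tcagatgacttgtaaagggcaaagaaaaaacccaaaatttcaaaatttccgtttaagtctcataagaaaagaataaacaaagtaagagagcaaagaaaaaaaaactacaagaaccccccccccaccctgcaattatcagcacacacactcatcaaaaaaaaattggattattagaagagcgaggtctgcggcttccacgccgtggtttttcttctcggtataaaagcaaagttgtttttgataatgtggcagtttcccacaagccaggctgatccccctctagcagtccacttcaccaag
Foxp3, second start, chrX:7580233-7580532, plus strand: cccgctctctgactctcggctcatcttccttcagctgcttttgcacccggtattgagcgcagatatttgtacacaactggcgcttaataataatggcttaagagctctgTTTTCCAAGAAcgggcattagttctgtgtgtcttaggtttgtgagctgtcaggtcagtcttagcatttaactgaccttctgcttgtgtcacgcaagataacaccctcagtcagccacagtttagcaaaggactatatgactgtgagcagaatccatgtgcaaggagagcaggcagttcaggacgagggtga
Izumo1r, chr9:14903718-14904017, minus strand: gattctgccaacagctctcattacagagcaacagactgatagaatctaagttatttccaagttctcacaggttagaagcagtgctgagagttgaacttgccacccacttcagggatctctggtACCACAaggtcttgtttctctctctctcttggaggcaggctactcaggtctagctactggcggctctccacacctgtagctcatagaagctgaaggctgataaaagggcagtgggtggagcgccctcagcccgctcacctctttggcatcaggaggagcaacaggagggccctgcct
Tnfrsf18, chr4:156026072-156026371, plus strand: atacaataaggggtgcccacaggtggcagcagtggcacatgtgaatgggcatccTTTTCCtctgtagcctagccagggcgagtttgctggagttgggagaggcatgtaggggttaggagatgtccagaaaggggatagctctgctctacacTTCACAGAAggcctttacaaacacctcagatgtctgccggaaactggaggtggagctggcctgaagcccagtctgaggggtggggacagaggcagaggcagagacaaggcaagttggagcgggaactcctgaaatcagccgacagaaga
Capitals mark motif matches, searched on both strands. The motifs were TGTGGT for RUNX factors, TGANTCA for AP-1, GGAAAA for NFAT, TTCNNNGAA for STAT factors, GTAAACA for forkhead factors and GGGCGG for Sp and KLF factors. The second Foxp3 window holds an NFAT match on the opposite strand, at position -141 from the start, which overlaps a STAT match at -139. Tnfrsf18 holds both motifs apart from each other, NFAT at -196 and STAT at -99. Izumo1r holds 1 RUNX match, at -127. The first Foxp3 window and that of Gpr83 hold none of the 6 motifs, Nrp1 holds 1 Sp and KLF match and Nt5e holds 4. Among all 32851 windows, 23.4% hold the NFAT motif, 8.3% the STAT motif, 16.8% the RUNX motif, 35.7% the Sp and KLF motif, 7.8% the AP-1 motif and 3.6% the forkhead motif. A match describes the letters of the window only.

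Loss of TRIM28 was compared with the wild type first across all 9 genes. A gene was called when its Benjamini-Hochberg adjusted p over all 22180 genes was under 0.05 in a limma fit. At 0 h 5 of the 9 genes were higher in KO cells (Ikzf4, Nrp1, Lrrc32, Izumo1r and Tnfrsf18) and 0 were lower, where 1.76% of all genes were called higher and 0.577% lower. At 4 h 4 were higher (Foxp3, Ikzf4, Nrp1 and Tnfrsf18) and Gpr83 was lower, against 3.3% and 0.834% of all genes. At 24 h 6 were higher (Foxp3, Ikzf4, Nrp1, Lrrc32, Izumo1r and Nt5e) and 0 lower, against 3.9% and 7.38%. At 72 h 4 were higher (Foxp3, Lrrc32, Izumo1r and Gpr83) and 0 lower, against 2.56% and 3.78%. Ikzf2 was the only 1 of the 9 that was called at none of the 4 times. The arrays of the genotypes did not overlap, in either direction, for 7, 6, 6 and 7 of the 9 genes at 0, 4, 24 and 72 h. Of all 22180 genes this held for 3753, 3597, 6034 and 5451, so a lack of overlap was common.

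The median change of the 9 genes, KO over WT, was 0.49 at 0 h, 0.37 at 4 h, 0.80 at 24 h and 0.81 at 72 h on the log2 scale. The median over all genes lay between -0.05 and 0.01 at the 4 times. Normalizing the arrays once more by quantiles moved the share of higher calls among all called genes, to 61.0% against 75.3% as deposited at 0 h, to 66.2% against 79.8% at 4 h and to 53.3% against 34.6% at 24 h. KO array 2 had the lowest B cell markers of the KO arrays at each time, but at 24 and 72 h still more than every WT array. KO array 2 was also kept as the only KO array, with its spread assumed to be that of the other groups. A call lost in that fit can reflect the smaller number of arrays. At 0 h its change was 1.76 for Nrp1 and 1.04 for Lrrc32, against 2.40 and 1.04 in the full fit. For Ikzf4, Izumo1r and Tnfrsf18 it was 0.64, 0.29 and 0.23, against 0.75, 0.49 and 0.31.

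**Figure D1:**
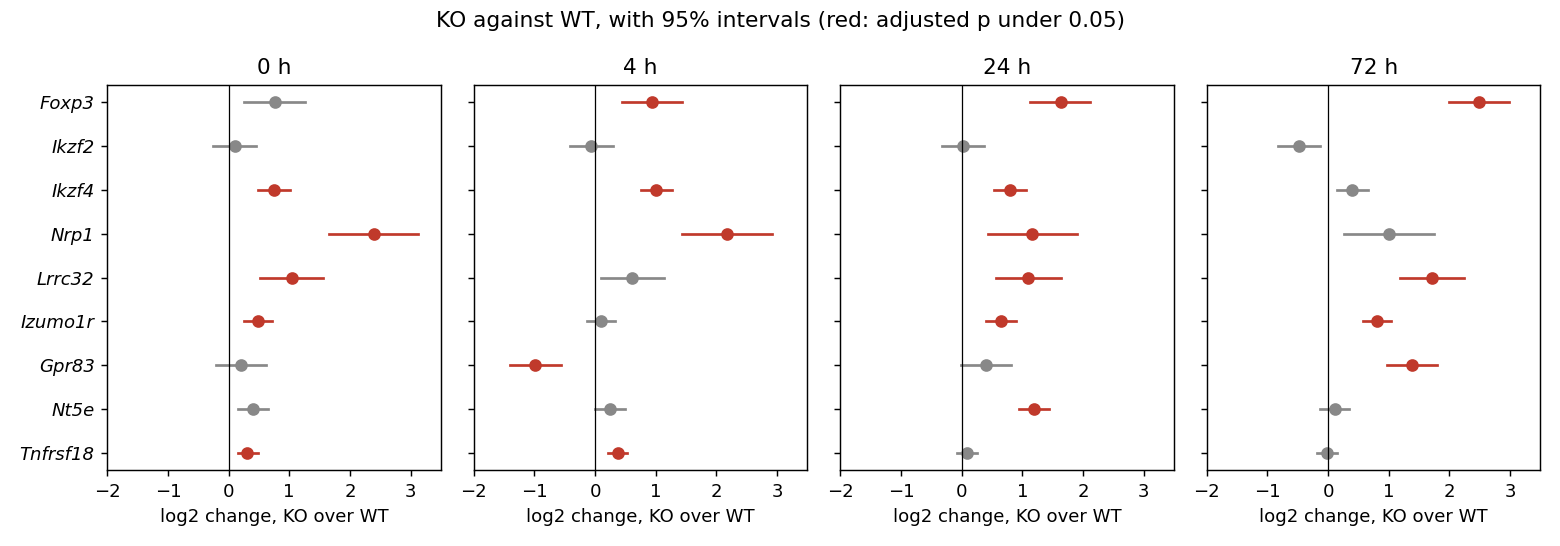
Log2 change of each gene, KO over WT, at the 4 times (one panel each); points are the limma estimates, bars their 95% intervals, and red marks an adjusted p under 0.05. Foxp3 moves rightward with time to 2.49 at 72 h, Nrp1 is farthest right at 0 h with 2.40, and Gpr83 lies left of 0 at 4 h and right of it at 72 h.

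Foxp3 was called higher in KO cells from 4 h of stimulation on, and every KO array was above every WT array at each of the 4 times. At 0 h Foxp3 was at 7.87, 7.29 and 7.12 in KO cells, against 6.70, 6.58 and 6.71 in WT cells. At 4 h Foxp3 was at 7.39, 6.76 and 6.74 in KO cells, against 5.55, 6.19 and 6.35 in WT cells. In both cases KO array 1 lay well above the other KO arrays. At 24 h Foxp3 was at 8.78, 8.01 and 8.36 in KO cells, against 6.68, 6.90 and 6.69 in WT cells. At 72 h Foxp3 was at 8.30, 7.50 and 7.99 in KO cells, against 5.31, 5.06 and 5.95 in WT cells. The lowest KO array at 72 h was above every WT array of any of the 4 times.

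The change of Foxp3, KO over WT, was 0.76 ± 0.24 at 0 h (limma estimate ± SE, adjusted p = 0.113), which did not pass the test except in a fit of the 0 h groups alone (adjusted p = 0.0462). It was 0.93 ± 0.24 at 4 h (adjusted p = 0.024), 1.63 ± 0.24 at 24 h (adjusted p = 5.53e-05) and 2.49 ± 0.24 at 72 h (adjusted p = 5.3e-08). The call at 4 h was lost without KO array 1 of that time (0.72), without WT array 1 (0.69) and after quantile normalization (0.76). It was also lost in a fit of the 4 h groups alone (adjusted p = 0.0703) and in the robust fit (adjusted p = 0.0648). On KO array 2 alone the change was 1.25 at 24 h and 2.05 at 72 h, both still called, and 0.73 at 4 h, which was not called. Foxp3 is on the X chromosome, and the arrays numbered 3 carried male Y-linked levels. Within the arrays numbered 1 and 2, the Foxp3 change was 0.94 at 0 h, 1.21 at 4 h, 1.61 at 24 h and 2.71 at 72 h.

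A difference between the genotypes in the response of Foxp3 to stimulation was called at 72 h only. In KO cells Foxp3 changed by -0.46 at 4 h relative to 0 h (adjusted p = 0.173), rose by 0.96 at 24 h (adjusted p = 0.0023) and stood 0.50 above 0 h at 72 h (adjusted p = 0.107). That last change was called without KO array 1 of 0 h (0.73) or KO array 2 of 72 h (0.72). In WT cells it fell by 0.63 at 4 h (adjusted p = 0.0434), changed by 0.09 at 24 h and fell by 1.22 at 72 h (adjusted p = 0.000135). The difference of the responses, KO minus WT, was 0.17 ± 0.34 at 4 h (adjusted p = 0.909) and 0.86 ± 0.34 at 24 h (adjusted p = 0.147). Neither was called. At 72 h the difference was 1.73 ± 0.34 (adjusted p = 0.00228). On KO array 2 alone that difference was 1.43 and was no longer called (adjusted p = 0.182), nor was the rise in KO cells at 24 h (0.72). The call of the fall in WT cells at 4 h was lost without WT array 1 of 4 h (-0.39) and after quantile normalization (-0.51). It was lost too without any 1 of the 3 WT arrays of 0 h (-0.61 to -0.68). The robust fit (adjusted p = 0.0849), the fit without the mean-variance trend (0.0591) and the arrays numbered 1 and 2 (0.0541) did not call it either. Ordered by mean, Foxp3 was highest in KO cells at 24 h and lowest in WT cells at 72 h, and of the 7 neighbouring pairs in that order only WT at 0 h and WT at 4 h had arrays that did not overlap.

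**Figure D2:**
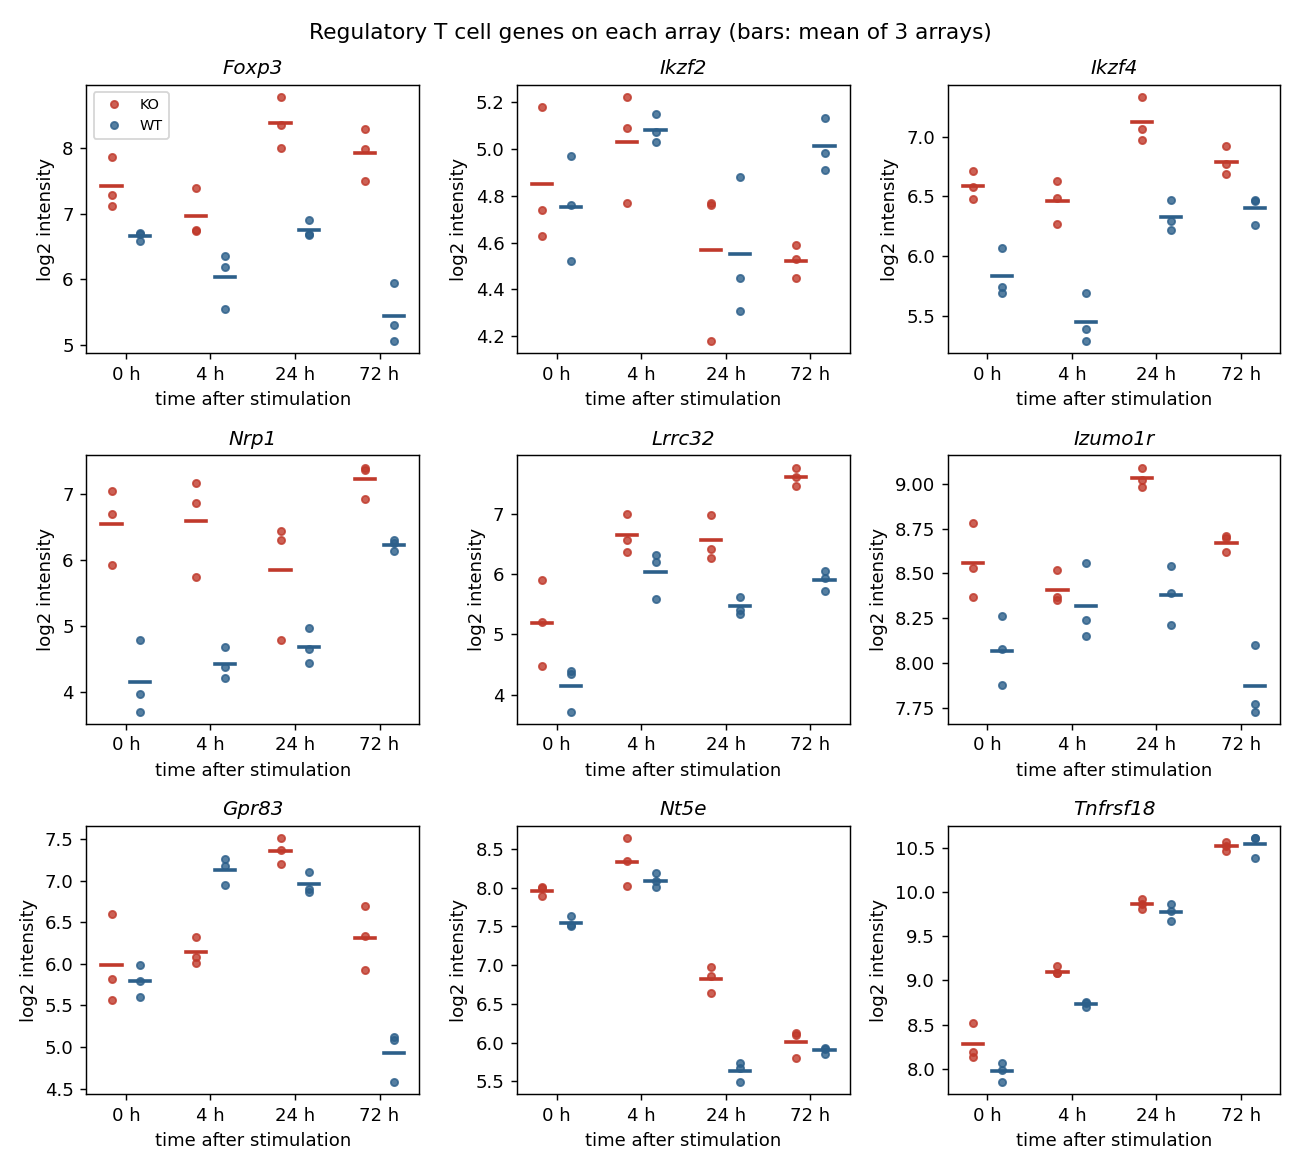
Log2 intensity of the 9 genes on every array (points), KO in red to the left and WT in blue to the right at each time of stimulation, with a bar at the mean of 3 arrays. Foxp3 lies apart between genotypes at all times, with KO means of 6.96 to 8.38 and WT means of 5.44 to 6.76, while Tnfrsf18 climbs to about the same level in both.

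Ikzf4 encodes Eos, an Ikaros family zinc finger protein that acts with Foxp3 in gene silencing. It was higher in KO cells before and during the first day of stimulation. At 0 h Ikzf4 was at 6.71, 6.48 and 6.58 in KO cells, against 6.07, 5.69 and 5.74 in WT cells. At 4 h Ikzf4 was at 6.63, 6.27 and 6.49 in KO cells, against 5.69, 5.29 and 5.39 in WT cells. Its arrays did not overlap between genotypes at any of the 4 times. At 24 h Ikzf4 was at 7.33, 6.97 and 7.06 in KO cells, against 6.22, 6.47 and 6.29 in WT cells. At 72 h Ikzf4 was at 6.92, 6.77 and 6.69 in KO cells, against 6.26, 6.47 and 6.46 in WT cells. The narrowest gap was thus at 72 h.

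The Ikzf4 change, KO over WT, was 0.75 ± 0.13 at 0 h (adjusted p = 0.0006), 1.01 ± 0.13 at 4 h (adjusted p = 7.72e-06) and 0.80 ± 0.13 at 24 h (adjusted p = 0.000131). At 72 h it was 0.40 ± 0.13 (adjusted p = 0.0649), which passed the test in 4 of the alternatives and not in the fit reported here. None of the 3 calls was lost by leaving out 1 array. Without the arrays numbered 3 the 0 h change was 0.71 and was not called (adjusted p = 0.0723), and on KO array 2 alone only the 4 h change, 0.81, was called (adjusted p = 0.015). Ikzf4 rose by 24 h in both genotypes, by 0.54 in KO cells and by 0.49 in WT cells. In WT cells it fell first, by 0.38 at 4 h, a call that was lost in a fit of those groups alone (adjusted p = 0.0846). It was also lost without WT array 1 of 0 h (-0.26), without WT array 2 (-0.29) or 3 (-0.34) of 4 h, and after quantile normalization (-0.21). That normalization also ended the call of the WT rise at 24 h (0.30). No difference between the responses of the genotypes was called for Ikzf4.

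Ikzf2 encodes Helios, the Ikaros family member found in most thymus-derived regulatory T cells. Its level hardly varied, with group means from 4.52 to 5.08 and a pooled SD of 0.23 within groups. At 0 h Ikzf2 was at 5.18, 4.74 and 4.63 in KO cells, against 4.97, 4.52 and 4.76 in WT cells. The 95% interval of the change, KO over WT, was -0.25 to 0.45 at 0 h, -0.41 to 0.29 at 4 h and -0.33 to 0.37 at 24 h. At 72 h Ikzf2 was at 4.45, 4.59 and 4.53 in KO cells, against 5.13, 4.91 and 4.98 in WT cells. Those arrays did not overlap, and the change of -0.48 ± 0.17 (interval -0.83 to -0.13) missed the threshold (adjusted p = 0.107). A fit of the 72 h groups alone called it (adjusted p = 0.0131).

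Of the 5 Ikaros family members measured, Ikzf4 was the only 1 called higher in KO cells at 0 and at 4 h. Ikzf3, which encodes Aiolos, was called higher at 24 h (0.65) and lower at 72 h (-0.54). The median change over the family was 0.10, 0.14, 0.06 and 0.07 at 0, 4, 24 and 72 h.

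Nrp1 encodes neuropilin-1, a receptor for semaphorins and vascular endothelial growth factors that marks thymus-derived regulatory T cells in mice. It had the largest change of the 9 genes at 0 h. At 0 h Nrp1 was at 6.69, 5.92 and 7.05 in KO cells, against 3.97, 3.70 and 4.79 in WT cells. At 4 h Nrp1 was at 6.87, 5.74 and 7.17 in KO cells, against 4.21, 4.37 and 4.68 in WT cells. KO array 2 was the lowest of its group at all 4 times and array 3 the highest, in WT cells too for array 3. At 24 h Nrp1 was at 6.30, 4.79 and 6.44 in KO cells, against 4.65, 4.43 and 4.96 in WT cells. At 72 h Nrp1 was at 7.36, 6.92 and 7.40 in KO cells, against 6.13, 6.25 and 6.30 in WT cells. The genotypes overlapped at 24 h only, where KO array 2 lay below WT array 3.

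The Nrp1 change, KO over WT, was 2.40 ± 0.36 at 0 h (adjusted p = 0.000114), 2.17 ± 0.36 at 4 h (adjusted p = 0.000344) and 1.16 ± 0.36 at 24 h (adjusted p = 0.0336). At 72 h it was 1.0 ± 0.36 (adjusted p = 0.113) and did not pass the test. A fit of the 72 h groups alone called it (adjusted p = 0.000208), and so did a fit with sex as a covariate (adjusted p = 0.0326). The call at 24 h was lost without KO array 1 (0.94) or 3 (0.87), without WT array 1 (1.15) or 2 (1.04) and in the robust fit (adjusted p = 0.0926). KO array 2 alone gave a change of 1.76 at 0 h, 1.32 at 4 h, 0.11 at 24 h and 0.69 at 72 h, none of them called.

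In WT cells Nrp1 rose by 2.07 ± 0.36 at 72 h relative to 0 h (adjusted p = 2.23e-05), and no earlier change was called. In KO cells it changed by 0.68 ± 0.36 at 72 h (adjusted p = 0.148). The difference of the responses at 72 h was -1.40 ± 0.50 (KO minus WT), which was not called (adjusted p = 0.15), although a fit of the compared groups alone called it (adjusted p = 0.0402). Of 18 measured semaphorin and VEGF partners, plexins, ligands and further receptors, 1 was called higher and 1 lower at 0 h (Sema7a with 0.71, Plxnd1 with -0.55), 0 at 4 h, and 3 lower each at 24 h (among them Plxnd1 with -0.62) and at 72 h (among them Vegfa with -0.70). Their median change lay between -0.07 and 0.02 at the 4 times.

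B cell markers moved in the same direction as several of these genes. Of 15 listed 13 were measured, 5 of them (Ms4a1, Blk, Fcrla, Cr2 and Spib) below the median of the table. Their summed log2 level at 0 h was 9.61, 8.68 and 9.43 in KO cells, against 8.39, 7.75 and 8.97 in WT cells. At 72 h it was 8.82, 8.08 and 8.43 in KO cells, against 7.69, 7.61 and 7.68 in WT cells. The groups overlapped at 0 h and not at 72 h. The median marker change was 0.81, 0.52, 0.36 and 0.35 at 0, 4, 24 and 72 h, and 2, 0, 2 and 1 markers were called higher. Deviations from group means correlated with those of the B cell marker sum at 0.74 for Nrp1, 0.50 for Foxp3, 0.42 for Ikzf4 and 0.07 for Tnfrsf18 (Pearson's r over 24 arrays, as a description). The other members lay between 0.20 (Nt5e) and 0.38 (Gpr83). Some values with other marker sums were as large, such as 0.60 for Ikzf2 with natural killer and innate lymphoid markers. With plasmacytoid dendritic cell markers Nt5e had -0.59. The highest with another sum was 0.35 for Nrp1 (myeloid) and 0.38 for Foxp3 (CD4 T cell). The same array numbers recur in all groups, so the 24 deviations may not be independent. On KO array 2 alone the median marker change was 0.25 at 0 h, 0.28 at 4 h, 0.35 at 24 h and 0.17 at 72 h. The marker sum of KO array 2 was 8.13 at 24 h, against 7.47 to 7.91 in WT cells. At 72 h its 8.08 was also above every WT array. Whether cells other than T cells contributed to the members' levels was not tested.

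Myeloid markers moved as well, with 4 of 15 called higher at 0 h (S100a8 by 2.26), 4 higher at 4 h, 1 higher at 24 h and 4 lower at 72 h (Mpeg1 by -3.38). Of these 15 markers 11 lay below the median of the table. Their summed level at 0 h was 9.81 to 10.06 in KO cells and 9.61 to 9.85 in WT cells, and at 72 h 9.14 to 9.47 in KO cells and 10.04 to 10.07 in WT cells. Of 7 plasmacytoid dendritic cell markers, a cell type that also carries neuropilin-1 in humans, 0 were called at 0 and at 4 h, 1 higher at 24 h and 1 lower at 72 h, with Siglech, Ccr9 and Klk1 below the median of the table. The 1 called lower at 72 h was Bst2 (-0.94). The summed level of the 7 markers at 0 h was 8.38 to 8.65 in KO cells and 8.41 to 8.57 in WT cells. At 72 h it was 9.15 to 9.59 in KO cells and 10.03 to 10.14 in WT cells, without overlap. Of 9 measured natural killer and innate lymphoid markers, 1 was called higher and 1 lower at 0 h, 0 at 4 h and 1 lower each at 24 and 72 h (Eomes, by -0.92 and -3.15). Their summed level at 72 h was 6.57 to 6.68 in KO cells and 7.63 to 7.94 in WT cells. A summed level weighs bright markers most. The median change at 72 h was -0.13 for the myeloid markers and -0.05 for the plasmacytoid dendritic cell markers. For the natural killer and innate lymphoid markers it was -0.04. Both CD8 T cell markers were measured, and Cd8b1 was lower in KO cells at 24 h (-0.41) and 72 h (-0.65), with Cd8a below the median of the table. The part of these lists in the members' changes was not tested.

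**Figure D3:**
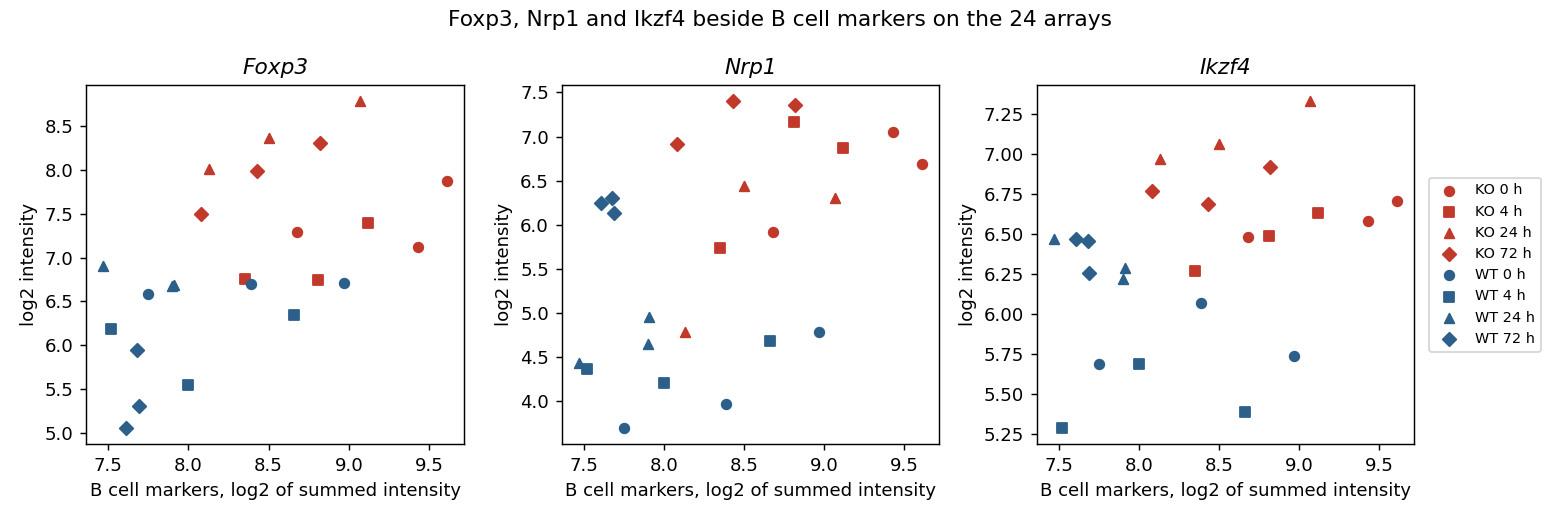
Log2 intensity of Foxp3, Nrp1 and Ikzf4 (vertical axes) beside the log2 of the summed intensity of 13 B cell markers (horizontal axes) on all 24 arrays; color gives the genotype and the symbol the time. B cell marker sums ran from 8.08 to 9.61 in KO cells and from 7.47 to 8.97 in WT cells, which overlap, and the Nrp1 points of KO array 2 lie lowest and farthest left of their groups.

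Lrrc32 encodes GARP, which holds latent TGF-beta on the surface of activated regulatory T cells. It rose with stimulation in both genotypes and reached its highest level in KO cells at 72 h. At 0 h Lrrc32 was at 5.90, 5.20 and 4.47 in KO cells, against 3.72, 4.39 and 4.35 in WT cells. At 4 h Lrrc32 was at 7.0, 6.56 and 6.36 in KO cells, against 5.58, 6.19 and 6.31 in WT cells. The gap between the nearest arrays of the genotypes was narrow at both times. At 24 h Lrrc32 was at 6.98, 6.27 and 6.41 in KO cells, against 5.62, 5.34 and 5.41 in WT cells. At 72 h Lrrc32 was at 7.60, 7.46 and 7.76 in KO cells, against 5.72, 5.93 and 6.04 in WT cells. At these later times the genotypes lay well apart.

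The Lrrc32 change, KO over WT, was 1.04 ± 0.26 at 0 h (adjusted p = 0.0258), 0.61 ± 0.26 at 4 h (adjusted p = 0.219), 1.1 ± 0.26 at 24 h (adjusted p = 0.00506) and 1.71 ± 0.26 at 72 h (adjusted p = 4.28e-05). The call at 0 h was lost without KO array 1 (0.68) or 2 (1.03) or without WT array 1 (0.82). It was also lost in a fit of the 0 h groups alone (adjusted p = 0.161) and in the robust fit (adjusted p = 0.0556). The call at 24 h was lost without KO array 1 (0.89). KO array 2 alone gave 1.57 at 72 h, which was called (adjusted p = 0.0211), unlike its 1.04 at 0 h and 0.82 at 24 h. Relative to 0 h, Lrrc32 rose in KO cells by 1.45, 1.37 and 2.42 at 4, 24 and 72 h, and in WT cells by 1.87, 1.30 and 1.74. The difference of the responses at 72 h was 0.67 ± 0.36 (adjusted p = 0.433).

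Of 16 measured genes of latent TGF-beta handling and signalling, 1 was called higher in KO cells at 0 h, 2 at 4 h and 2 at 24 h, with 0 lower. At 72 h 1 was higher and 4 were lower. Tgfb3, a TGF-beta ligand, was at 4.84, 4.96 and 4.72 in KO cells at 0 h, against 3.89, 3.94 and 3.85 in WT cells, a change of 0.95 (adjusted p = 9.53e-05). Furin, the protease that processes pro-TGF-beta, was at 8.25, 8.37 and 8.17 in KO cells at 72 h, against 9.35, 9.22 and 9.06 in WT cells, a change of -0.95 (adjusted p = 1.09e-08). Neither gene overlapped between genotypes at the time named. The median of the list was 0.02, 0.00, 0.11 and 0.03 at the 4 times.

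Izumo1r encodes Juno, also called folate receptor 4, a surface protein of regulatory and anergic CD4 T cells. It was higher in KO cells at 3 of the 4 times. At 0 h Izumo1r was at 8.53, 8.37 and 8.78 in KO cells, against 8.08, 7.88 and 8.26 in WT cells. At 4 h Izumo1r was at 8.37, 8.52 and 8.35 in KO cells, against 8.15, 8.24 and 8.56 in WT cells. The genotypes overlapped at 4 h only. At 24 h Izumo1r was at 8.98, 9.09 and 9.02 in KO cells, against 8.21, 8.54 and 8.39 in WT cells. At 72 h Izumo1r was at 8.70, 8.62 and 8.71 in KO cells, against 7.73, 7.77 and 8.10 in WT cells. The KO arrays lay close together at 24 and 72 h, with an SD of 0.05 at each.

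The Izumo1r change, KO over WT, was 0.49 ± 0.12 at 0 h (adjusted p = 0.0203), 0.10 ± 0.12 at 4 h (adjusted p = 0.765), 0.65 ± 0.12 at 24 h (adjusted p = 0.000451) and 0.81 ± 0.12 at 72 h (adjusted p = 2.53e-05). The call at 0 h was lost without KO array 1 (0.50) or 3 (0.38) and without WT array 1 (0.49) or 2 (0.39). It was also lost in a fit of the 0 h groups alone (adjusted p = 0.0832). The calls at 24 and 72 h held without any 1 array. Both later changes were also called on KO array 2 alone, at 0.71 and 0.75. In KO cells Izumo1r rose by 0.47 at 24 h. In WT cells it rose by 0.31 at 24 h, a call that was lost without WT array 1 (0.31) or 2 (0.21) of 0 h, without WT array 2 (0.23) or 3 (0.30) of 24 h, and after quantile normalization (adjusted p = 0.369).

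Gpr83 encodes a G protein-coupled receptor with high RNA in mouse regulatory T cells. It was the only 1 of the 9 genes called in both directions. At 0 h Gpr83 was at 5.57, 5.82 and 6.60 in KO cells, against 5.79, 5.60 and 5.98 in WT cells. At 4 h Gpr83 was at 6.08, 6.01 and 6.32 in KO cells, against 6.95, 7.17 and 7.26 in WT cells. The genotypes overlapped before stimulation, and every KO array was below every WT array at 4 h. At 24 h Gpr83 was at 7.37, 7.20 and 7.51 in KO cells, against 7.10, 6.90 and 6.86 in WT cells. At 72 h Gpr83 was at 6.69, 5.92 and 6.33 in KO cells, against 4.58, 5.12 and 5.09 in WT cells. From 24 h on every KO array was above every WT array of its time.

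The Gpr83 change, KO over WT, was 0.20 ± 0.20 at 0 h (adjusted p = 0.766), -0.99 ± 0.20 at 4 h (adjusted p = 0.00332), 0.40 ± 0.20 at 24 h (adjusted p = 0.227) and 1.38 ± 0.20 at 72 h (adjusted p = 2.8e-05). No single array decided the calls at 4 and 72 h, and a fit of the 24 h groups alone called that change (adjusted p = 0.0329). On KO array 2 alone the 4 h change was -1.11 (adjusted p = 0.0568) and the 72 h change 0.99 (adjusted p = 0.0497). In WT cells Gpr83 rose by 1.33 at 4 h and by 1.17 at 24 h, and fell by 0.86 at 72 h. In KO cells it changed by 0.15 at 4 h (adjusted p = 0.689), rose by 1.37 at 24 h and changed by 0.32 at 72 h (adjusted p = 0.235). That last change was called without KO array 3 of 0 h (0.62, adjusted p = 0.00748) and on the arrays numbered 1 and 2 (0.61, adjusted p = 0.0299).

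The responses of Gpr83 differed at 4 h by -1.19 ± 0.28 (KO minus WT, adjusted p = 0.0453) and at 72 h by 1.18 ± 0.28 (adjusted p = 0.0134). The 4 h difference was lost without WT array 1 (-1.19) or 2 (-1.09) of 0 h, KO array 3 of 0 h (-0.89), WT array 2 (-1.17) or 3 (-1.12) of 4 h, or KO array 1 (-1.16) or 2 (-1.13) of 4 h. The 72 h difference was lost without KO array 1 of 0 h (0.96), KO array 1 of 72 h (0.99) or WT array 1 of 72 h (1.0). It was also lost in a fit of the compared groups alone (adjusted p = 0.0535). KO array 2 alone gave -1.14 and 0.97, neither of them called.

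Nt5e encodes CD73, the enzyme that makes adenosine from AMP outside the cell. It rose at 4 h and fell by 24 and 72 h of stimulation in both genotypes, and was higher in KO cells at 24 h. At 0 h Nt5e was at 8.01, 7.89 and 7.99 in KO cells, against 7.50, 7.52 and 7.64 in WT cells. At 4 h Nt5e was at 8.64, 8.35 and 8.02 in KO cells, against 8.19, 8.08 and 8.01 in WT cells. The genotypes were apart at 0 h and overlapped at 4 h. At 24 h Nt5e was at 6.98, 6.86 and 6.64 in KO cells, against 5.67, 5.73 and 5.49 in WT cells. At 72 h Nt5e was at 6.12, 6.10 and 5.80 in KO cells, against 5.92, 5.85 and 5.93 in WT cells. The gap at 24 h was the widest of the 4 times, and at 72 h the arrays overlapped again.

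The Nt5e change, KO over WT, was 0.41 ± 0.12 at 0 h (adjusted p = 0.0731), 0.24 ± 0.12 at 4 h (adjusted p = 0.329), 1.19 ± 0.12 at 24 h (adjusted p = 1.47e-07) and 0.11 ± 0.12 at 72 h (adjusted p = 0.822, 95% interval -0.14 to 0.35). The 0 h change was called with dim genes left out (adjusted p = 0.044), with the compared groups alone (adjusted p = 0.0312) and with sex as a covariate (adjusted p = 0.0394). At 24 h naive T cell markers were higher in KO cells too, 3 of 5 measured ones being called (S1pr1 by 1.55, Klf2 by 1.24 and Ccr7 by 0.29). Their summed level was 11.66 to 11.97 in KO cells and 11.37 to 11.49 in WT cells, and their part in the Nt5e change was not tested. The 24 h change on KO array 2 alone was 1.22 (adjusted p = 8.69e-05). Relative to 0 h, Nt5e in KO cells rose by 0.37 at 4 h and fell by 1.14 at 24 h and fell by 1.95 at 72 h. In WT cells it rose by 0.54 at 4 h and fell by 1.92 at 24 h and fell by 1.65 at 72 h. The rise in KO cells was lost without KO array 2 of 0 h (0.34) or KO array 1 of 4 h (0.22). It was also lost after quantile normalization (0.30) and in a fit of those groups alone (adjusted p = 0.0534). The responses differed at 24 h by 0.78 ± 0.17 (KO minus WT, adjusted p = 0.00591), and on KO array 2 alone by 0.89, which was not called (adjusted p = 0.0896).

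Of 8 measured genes of adenosine handling, 1 was called lower at 0 h (the nucleoside transporter Slc29a1 with -0.48), 1 higher at 4 h, 1 higher and 1 lower at 24 h and 0 at 72 h. The one that was higher at 4 and 24 h was Dpp4, which encodes CD26, a surface peptidase that binds adenosine deaminase in humans. At 24 h Dpp4 was at 8.41, 8.10 and 8.18 in KO cells, against 7.29, 7.04 and 7.28 in WT cells, a change of 1.03 (adjusted p = 3.2e-07). Its groups did not overlap. Entpd1, which encodes CD39, the enzyme upstream of CD73, was measured and called at none of the 4 times.

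Tnfrsf18 encodes GITR, a costimulatory receptor of the TNF receptor superfamily that is induced on activated T cells. It had small differences between genotypes and a steady rise with time. At 0 h Tnfrsf18 was at 8.13, 8.19 and 8.52 in KO cells, against 8.06, 7.85 and 7.99 in WT cells. At 4 h Tnfrsf18 was at 9.08, 9.16 and 9.08 in KO cells, against 8.76, 8.70 and 8.75 in WT cells. Neither time showed an overlap. At 24 h Tnfrsf18 was at 9.81, 9.87 and 9.92 in KO cells, against 9.86, 9.79 and 9.67 in WT cells. At 72 h Tnfrsf18 was at 10.47, 10.57 and 10.52 in KO cells, against 10.61, 10.39 and 10.61 in WT cells. The genotypes overlapped at both later times.

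The Tnfrsf18 change, KO over WT, was 0.31 ± 0.08 at 0 h (adjusted p = 0.0322) and 0.37 ± 0.08 at 4 h (adjusted p = 0.00552). It was 0.09 ± 0.08 at 24 h (95% interval -0.07 to 0.26) and -0.02 ± 0.08 at 72 h (-0.18 to 0.15). The call at 0 h was lost without KO array 3 (0.19), without WT array 2 (0.26) or 3 (0.32) and after quantile normalization (0.27). It was also lost in a fit of the 0 h groups alone (adjusted p = 0.251) and without the mean-variance trend (adjusted p = 0.0924). The 4 h call held without any 1 array. Relative to 0 h, Tnfrsf18 rose in KO cells by 0.82, 1.59 and 2.24 at 4, 24 and 72 h, and in WT cells by 0.77, 1.81 and 2.57. Of 10 measured genes of the GITR ligand and related TNF receptors, 3 were called higher in KO cells at 0 h (Tnfrsf9 with 0.84, Traf1 with 0.55 and Tnfrsf4 with 0.51), and Tnfrsf4 (0.35) again at 4 h. At 24 h 1 was higher (Traf1, an adaptor of these receptors, with 0.50) and 1 lower (Tnfsf9, the ligand of Tnfrsf9, with -0.63), and at 72 h 1 was lower (Traf1 with -0.44).

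Stimulation moved the 9 genes in different directions. In KO cells 3 rose and 0 fell at 4 h, 6 rose and 1 fell at 24 h, and 2 rose and 1 fell at 72 h. Of all genes in KO cells 15.1% rose and 16% fell at 4 h, 17.6% rose and 16.5% fell at 24 h, and 21.1% rose and 18.6% fell at 72 h. In WT cells 4 rose and 2 fell at 4 h, 5 rose and 1 fell at 24 h, and 4 rose and 3 fell at 72 h. Of all genes in WT cells 16.8% rose and 17.8% fell at 4 h, 23.2% rose and 16.5% fell at 24 h, and 22.2% rose and 18.3% fell at 72 h. Lrrc32 and Tnfrsf18 rose at all 3 times in both genotypes, and Nt5e fell at 24 and 72 h in both. The 3 genes that fell in WT cells at 72 h were Foxp3, Gpr83 and Nt5e, and of these only Nt5e fell in KO cells.

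A difference between the genotypes' responses was called for 1 of the 9 genes at 4 h (Gpr83), against 0.726% of all genes, for 1 at 24 h (Nt5e), against 5.87%, and for 2 at 72 h (Foxp3 and Gpr83), against 3.91%. These comparisons share the 0 h arrays with each other.

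**Figure D4:**
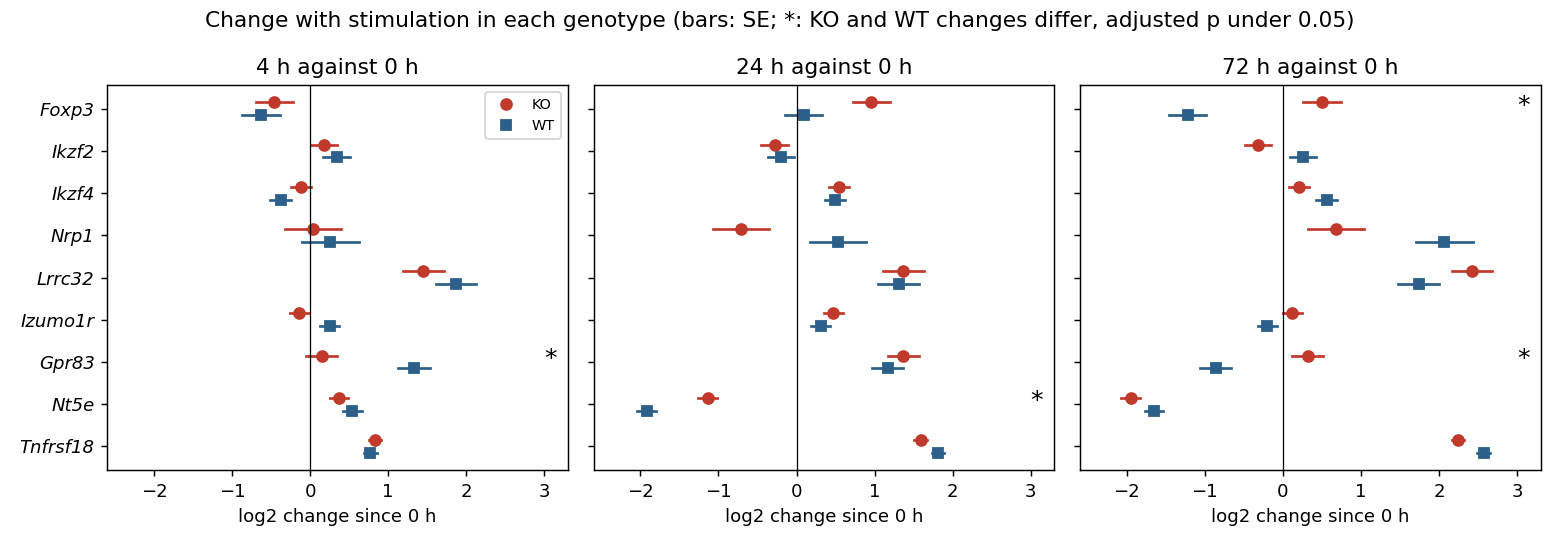
Log2 change since 0 h in KO cells (red circles) and WT cells (blue squares, drawn beneath) for each gene at 4, 24 and 72 h; bars are SE and an asterisk marks a called difference between the genotypes' responses. At 72 h Foxp3 stood at 0.50 in KO cells and -1.22 in WT cells, and Nt5e and Tnfrsf18 moved alike in direction in both.

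Other genes of regulatory T cells were counted from a list of 25, of which 24 were measured. In KO cells 5 were called higher at 0 h, 6 at 4 h and 4 at 24 h, with 0 lower at these times, and 2 were higher and 3 lower at 72 h. Of all genes 1.76%, 3.3%, 3.9% and 2.56% were called higher at 0, 4, 24 and 72 h, and 0.577%, 0.834%, 7.38% and 3.78% lower. These shares apply to every list and marker set of this report. The lists share genes and are not separate evidence. Tnfrsf9 and Tnfrsf4, called here at 0 h, are also in the GITR list, and Ctla4 is also among the anergy genes below. Tnfrsf1b, which encodes TNF receptor type II, was at 8.22, 8.38 and 8.30 in KO cells at 0 h, against 7.27, 7.34 and 7.35 in WT cells, a change of 0.98 (adjusted p = 4.61e-08). Ctla4, an inhibitory receptor that competes for costimulatory ligands, was at 6.29, 6.18 and 6.07 in KO cells at 4 h, against 5.57, 5.25 and 5.23 in WT cells, a change of 0.83 (adjusted p = 2.08e-06). In neither case did the groups overlap. Gzmb, the cytotoxic granule protease granzyme B, was at 7.63, 7.57 and 7.97 in KO cells at 72 h, against 10.67, 10.48 and 10.53 in WT cells, a change of -2.84 (adjusted p = 1.99e-13). Plagl1, a zinc finger factor, changed by -2.62 and Penk, which encodes proenkephalin, by -1.06 at 72 h, although Penk was higher at 4 h (1.09). The list's median change was 0.15, 0.17, 0.23 and -0.04 at 0, 4, 24 and 72 h.

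Of 31 measured factors that act upstream of Foxp3 or with its protein, 0 were called higher and 1 lower at 0 h, 3 higher and 1 lower at 4 h, 4 higher and 5 lower at 24 h, and 2 higher and 5 lower at 72 h. Stat5a (0.49) and Stat5b (0.38), which carry the interleukin-2 signal to Foxp3, were higher in KO cells at 4 h. At 24 h Ikzf3 (0.65), Satb1 (0.64) and Foxo1 (0.51) were higher. Runx3, which binds Foxp3 regulatory DNA with its partner Cbfb, was lower at 72 h (-0.79). Ikzf3 (-0.54), Satb1 (-0.38) and Stat5b (-0.27), each higher at the earlier time named, were also called lower at 72 h. The list's median change stayed between -0.03 and 0.05.

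Of 12 measured genes that Foxp3 is known to hold down, 0 were higher and 1 was lower at 0 h, 1 higher and 3 lower at 4 h, 3 higher and 1 lower at 24 h, and 2 higher and 3 lower at 72 h. Il2, the T cell growth factor gene, was at 7.52, 8.05 and 8.16 in KO cells at 24 h, against 9.90, 9.94 and 9.88 in WT cells, a change of -2.0 (adjusted p = 1.99e-08). At 72 h Il7r changed by -1.13 and Ifng by -0.93. Ptpn22 (0.80) and Satb1 (0.64, also among the factors above) were higher at 24 h, so the list did not move one way. Of 12 anergy genes, reported beside Izumo1r and Nt5e in tolerant T cells, 5 were higher and 1 lower at 72 h, among them Egr3 (0.99) and Pdcd1 (0.72) higher and Lag3 lower (-0.73). At 24 h Egr3 (-0.62) and Pdcd1 (-0.58) were lower, with 2 higher and 3 lower in all, while 1 was higher at 0 h and 2 were higher and 1 lower at 4 h.

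The 9 genes did not share one pattern over the 24 arrays. Of their 36 pairs, 25 had deviations from group means that correlated above 0, with a median r of 0.18. The highest was Foxp3 with Lrrc32 (0.69) and the lowest Lrrc32 with Tnfrsf18 (-0.62). Over levels, Foxp3 and Izumo1r were the pair most alike (r = 0.85) and Nt5e and Tnfrsf18 the least (-0.78). Izumo1r and Gpr83 are direct neighbours on chromosome 9 in the RefSeq annotation of GRCm38.p6, and their levels correlated at 0.69 and their deviations at 0.46. All of these r values share arrays, groups and normalization and are given as descriptions.

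Among 5075 genes whose group means spanned at least 1 on the log2 scale, the 5 most like Foxp3 over the 24 arrays were Ly6d (r = 0.90), Ly6k (0.88), Acadm (0.86), Izumo1r (0.85) and Gstt1 (0.79). Ly6d, a small membrane-anchored protein known as a marker of early B lineage cells, was at 7.55 to 8.24 in KO cells and 4.63 to 5.04 in WT cells at 24 h. Acadm, a mitochondrial enzyme of fatty acid oxidation, was at 10.42 to 10.51 in KO cells and 8.03 to 8.12 in WT cells at 72 h. Within groups these likenesses were weaker, with r of deviations between 0.32 for Izumo1r and 0.60 for Gstt1. The best match of each other gene was Gstt2 for Ikzf4 (0.92), Osbpl3 for Nrp1 (0.94), Rabggtb for Lrrc32 (0.86) and Ly6d for Izumo1r (0.86). For the rest it was Npas4 for Gpr83 (0.78), Utrn for Nt5e (0.98), Ergic1 for Tnfrsf18 (0.98) and Il21r for Ikzf2 (0.71). With these matches the r of deviations was near 0 for Ikzf4 (-0.05), Lrrc32 (-0.03), Nt5e (0.085) and Tnfrsf18 (0.11). It was 0.60 for Nrp1, 0.49 for Izumo1r, 0.27 for Gpr83 and 0.36 for Ikzf2.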

How the data were processed

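RNA of 24 samples was measured on Affymetrix arrays. The authors deposited log2 values of 41345 probe sets, made with R 3.1.0, oligo and RMA per the submitters' processing notes. The sources used here state no filter, probe set level or batch step. RMA compresses low signals, so changes of dim genes may be understated. Groups and array numbers came from the sample titles. Probe sets were named through the platform annotation, which listed 1 gene for 23521 of them, several for 1814 and none for 16010. Of the single-gene ones 23328 were matched to RefSeq by Entrez ID. A gene took the probe set with the highest mean, which left 22180 genes.

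A limma 3.58.1 fit in R 4.3.3 of all 8 groups, with empirical Bayes moderation and a mean-variance trend, gave changes, SE and Benjamini-Hochberg adjusted p over all genes. The fit was tested on simulated data. The number of arrays limits the precision. Named were the 9 genes, Trim28, up to 3 called genes with the largest change per further list and comparison, and the genes most correlated with each member. Entpd1, and Satb1 and Stat5b at 72 h, were named after their values were seen. The members and lists were chosen with earlier results of these data known. Alternatives were a filter on dim genes, quantile normalization, the mean over probe sets, other variance models, a fit of the compared groups alone, sex as a covariate, a block on the array number, a random block, KO array 2 as the sole KO array (taken over from earlier work on these data) and each array left out. Promoter windows came from RefSeq. Correlations with marker sums, intervals and neighbouring genes were added after seeing the data. No protein sequence was used here.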

Additional observations from a re-analysis of the deposited data

Results flagged for a closer look

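The response to stimulation differed between KO and WT cells by the fitted test of the difference itself in 4 instances. Gpr83 differed by -1.19 at 4 h (KO minus WT, log2 scale). Nt5e differed by 0.78 at 24 h. Foxp3 differed by 1.73 at 72 h. Gpr83 differed by 1.18 at 72 h, in the opposite direction to its difference at 4 h. All 4 use the 0 h arrays, on which B cell markers and the members' levels varied between arrays of a group. No group holds enough arrays for a test of single outlying arrays.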

How the results depend on the processing

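Of 2124 values of 117 member results under the alternatives, 1950 stayed on their side of the threshold, 93 lost a call, 32 gained one, 49 changed sign without being called in either fit and 0 reversed. When KO array 2 was the only KO array kept, the number of members called, KO against WT, was 0 at 0 h, 1 at 4 h and 3 at 24 h, and 0 response differences remained called at 4, 24 and 72 h. Arrays 1 and 2 alone gave 3 members at 0 h, and a fit of only the compared groups 7 at 72 h. The latter fit also lost calls between genotypes, those of Lrrc32, Izumo1r and Tnfrsf18 at 0 h and of Foxp3 at 4 h. The response difference of Gpr83 at 72 h was lost in it too. The single response difference at 4 h (Gpr83) fell to 0 under quantile normalization, the fit of compared groups, the robust fit, no mean-variance trend and arrays 1 and 2 alone. With the replicate block, 2 members in place of 1 had a called response difference at 24 h (Nt5e and Nrp1) and 3 in place of 2 at 72 h (Foxp3, Gpr83 and Nrp1, the last with an adjusted p of 0.012). The block also called Nrp1 (adjusted p = 0.00708) and Ikzf4 (0.0368) between genotypes at 72 h, Nt5e at 0 h (0.0359), and Nrp1 in KO cells at 24 h (0.0197) and 72 h (0.0225). The labels do not tie the array numbers to animals, so the block is only an alternative. Deviations of same-numbered KO and WT arrays correlated at 0.032 to 0.172, with 6 of 12 pairs over 0.1. Between times they correlated at 0.042 to 0.237 in KO cells (11 of 18 pairs over 0.1) and at -0.021 to 0.181 in WT cells (9 of 18). A random block on genotype and number gave a correlation of -0.0075. Whether 1 animal was sampled at several times is not known. The count of all genes called, KO against WT, was 276 at 0 h and 309 at 4 h in the fit of compared groups, 284, 562 and 707 at 0, 4 and 72 h on arrays 1 and 2, and 172, 322, 554 and 506 at 0, 4, 24 and 72 h on KO array 2, where the reported fit called 518, 917, 2501 and 1405. Called response differences at 4, 24 and 72 h numbered 161, 1302 and 868 in the reported fit, 76, 779 and 451 on arrays 1 and 2, and 39, 206 and 248 on KO array 2, with 79 at 4 h in the fit of compared groups. In KO cells 4528 in place of 6895 genes were called at 4 h and 5016 in place of 7546 at 24 h on KO array 2.

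Leaving out single arrays gave 3 to 4 members called at 0 h, 4 to 5 at 4 h, 4 to 6 at 24 h and 4 to 4 at 72 h between genotypes. For the response differences it gave 0 to 1 at 4 h, 1 to 1 at 24 h and 1 to 2 at 72 h. Over time it gave 2 to 3, 7 to 8 and 3 to 4 in KO cells and 4 to 6, 5 to 6 and 7 to 8 in WT cells at 4, 24 and 72 h. Arrays of 3 per group limit precision, and the cause of lost calls was not tested.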

Other observations

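The genes next to the members on the chromosome (RefSeq order in GRCm38.p6) were looked at after the members' values were seen. Suox, a mitochondrial sulfite oxidase gene beside Ikzf4, was called higher in KO cells at 4 h (0.89) and 24 h (0.56). Tnfrsf4, which encodes the costimulatory receptor OX40 and lies beside Tnfrsf18, was higher at 0 h (0.51) and 4 h (0.35), the times at which Tnfrsf18 was also called. Snx14, beside Nt5e, was higher at 4 h (0.54), when Nt5e was not called. Itgb1, an integrin gene beside Nrp1, was lower at 24 h (-0.62), when Nrp1 was higher. The neighbours of Lrrc32 (Gucy2d and Emsy) and of Ikzf2 (Erbb4 and Spag16) were called at none of the 4 times. Gucy2d, Erbb4 and Spag16 averaged 2.86, 2.68 and 2.62, below the level of 3.24 under which genes counted as dim. Also uncalled were Ppp1r3f, Rps26, Pard3, Panx1, Mre11a, Tbx18 and Ttll10, and Ccdc22 beside Foxp3 was not measured. Pard3 and Ttll10 averaged 2.77 and 3.22, also below the level of 3.24. Of all genes 1.76%, 3.3% and 3.9% were called higher at 0, 4 and 24 h, and 7.38% lower at 24 h.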
